A study of Mus musculus with 70 samples.

Results

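The embryonic midbrain (M) and the embryonic hindbrain (H) were compared in mouse embryos at E14.5, with 2 M and 3 H libraries out of 70 libraries in the whole series. The 5 libraries were chosen by their labels alone. All came from E14.5 embryos of a strain that the labels give as C57BL/6 and the study's methods as C57BL/6NTac, and no treatment or altered allele is given. Each library pooled single punches of frozen sagittal sections from several embryos, so a replicate is a pool of tissue and not an animal, and the study used too few embryos for each embryonic library to have its own. Libraries therefore shared embryos, which ones is not given, and the tests treated the pools as independent. The other embryonic groups were the hypothalamus (THy-PHy, 3 libraries) and the forebrain (F, 1 library). Expression was measured by sequencing of mRNA and is given as TPM, the length-scaled share of a gene among the transcripts of its library. Values are listed in the order of the replicate numbers, first M replicates 1 and 2, then H replicates 1, 2 and 3.

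The midbrain and the hindbrain arise from neighbouring parts of the neural tube that are told apart by transcription factors. Otx2 marks the forebrain and midbrain side of their boundary and Gbx2 the hindbrain side, while the isthmic organiser at the boundary signals to both through Fgf8 and Wnt1. Behind the boundary the hindbrain is divided into segments, the rhombomeres, each with its own combination of Hox genes, and Hox genes of higher paralog group are switched on further back towards the spinal cord. The ventral midbrain makes most dopamine neurons of the brain, and the hindbrain makes cranial motor, noradrenaline and serotonin neurons and the cerebellum.

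The 5 libraries were not alike within the H group. The total estimated count was 9074581 in H replicate 1 and between 15920930 and 17256421 in the other 4 libraries. Mitochondrially encoded genes held 3.15% and 4.36% of the TPM in M and 22.6%, 11.8% and 6.10% in H, so every H library lay above both M libraries, and the median over all 70 libraries was 7.49%. Over the genes of the table, none of which counts as a replicate, the Pearson correlation of log2(TPM + 1) was 0.985 between the M libraries and 0.955 to 0.980 between the H libraries. H replicate 2 was most like a THy-PHy library (r = 0.9802) and H replicate 3 most like M replicate 1 (r = 0.9797), each close to the 0.9795 between these 2 H libraries. The midbrain markers Otx2 and Tal1 were above all H libraries in both M libraries and were present in H too, and the 3 H libraries differed in regional markers. Hox genes of paralog groups 4 to 8 summed to 459 and 522 TPM in H replicates 1 and 2 but to 9.62 TPM in H replicate 3. Midbrain factors such as Tal2, a selector of midbrain GABA neurons, were at 34.7 TPM in H replicate 2 against 0.292 and 0.287 TPM in the other H libraries. Cartilage, muscle and epithelial markers summed to 1459.6 TPM in H replicate 1 and to between 89.1 and 284 TPM in the other 4 libraries. How far these differences enter the comparisons was not tested beyond leaving out each library in turn.

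Of 16424 genes tested, 6 were higher in M (0.0365%) and 4 were higher in H (0.0244%) by edgeR's quasi-likelihood test, where a call needed an adjusted p below 0.05 and a change of more than 1 on the log2 scale. The fit also held the 3 THy-PHy libraries, and with the M and H libraries alone 0 genes were called in either direction. At an unadjusted p under 0.05 there were 3296 genes in the first fit. The median log2 fold change of M minus H over all tested genes was -0.03. On log2 TPM the median was 0.27, a shift of all genes that the scaling of the counts does not have, and fold changes given here are those of the scaled counts. This fit estimated the spread from the 8 libraries of M, H and THy-PHy, whose common coefficient of variation between libraries of a group was 0.309, and 0.246 without H replicate 1. The same fit over all 70 libraries, whose common coefficient of variation was 0.184, called 502 genes higher in M (2.51% of 19980) and 1203 higher in H (6.02%), among them all 10 genes called above. Counts given below as called with the spread of all libraries come from that fit and are to be read against its shares of 2.51% and 6.02%. In that fit most libraries are adult regions or stem cells, which may vary between pools otherwise than M and H do. Over the M and H libraries alone the common coefficient of variation was 0.327. The calls over all 70 libraries thus rest on a spread smaller than that of M and H, and may include false calls. Without H replicate 1 the same fit called 191 genes higher in M (0.961% of 19876) and 365 higher in H (1.84%), again with all 10 among them, and the number without that library is given beside each count that rests on this fit. DESeq2 called 95 genes higher in M (0.580% of 16370) and 351 higher in H (2.14%). The share of calls that were higher in M was thus 6 of 10 in the first fit, 29.4% over all libraries and 21.3% with DESeq2. As a description free of any model, the TPM of both M libraries lay above all 3 H libraries for 30.7% of the 16166 genes with a mean of at least 1 TPM in M or H, and below all 3 for 12%. On CPM after TMM scaling (edgeR's correction for library composition) these shares were 26.2% and 21.9%, so counts of non-overlapping genes depend on the scale and are given in TPM unless stated. An exact permutation test of 2 against 3 libraries cannot reach a two-sided p under 0.1, so none was run for single genes.

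**Figure D1:**
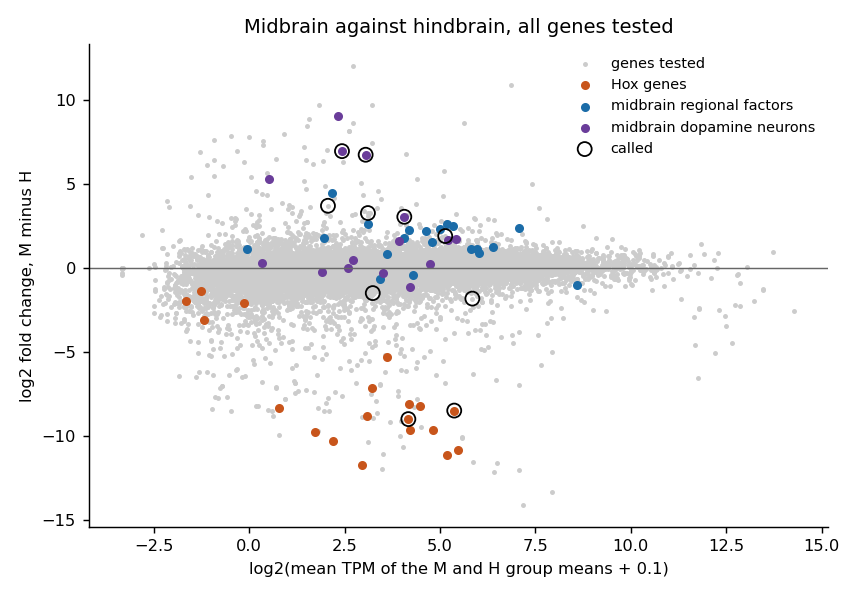
Log2 fold change of M minus H (vertical axis) against the log2 of the mean TPM of the group means plus 0.1 (horizontal axis) for each of the 16424 genes tested. Grey points are genes, coloured points are members of 3 gene lists, and black circles mark the 10 genes called. Most of the Hox genes lie far below 0, with midbrain dopamine genes among the highest points, while the median of all genes is -0.03.

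The genes higher in M were led by the forkhead factors Foxa1 and Foxa2, which pattern the floor plate and are needed for midbrain dopamine neurons. Foxa2 (ENSMUSG00000037025.11, chromosome 2, 148042877 to 148046969 of GRCm38) was at 13.3 and 18.9 TPM in M and 0.609, 0.135 and 0.147 TPM in H, with 575 estimated counts in M and 6 in H. Its log2 fold change was 6.72 ± 0.63 (SE, adjusted p = 0.0329). Foxa1 (ENSMUSG00000035451.7, chromosome 12, 57540628 to 57546916) was at 6.39 and 14.7 TPM in M and 0.139, 0 and 0.0671 TPM in H, a log2 fold change of 6.94 ± 0.75 (adjusted p = 0.0329). Both genes were thus close to absent in the 3 H libraries, and the H counts of 5 and 6 make the size of the fold imprecise. Whether the M and H punches sampled the floor plate alike was not tested. A difference in punch position cannot be told apart from one of region. Ddc (ENSMUSG00000020182.16, chromosome 11, 11814101 to 11898144), the decarboxylase that makes dopamine and serotonin from their precursors, was at 26.8 and 32.3 TPM in M and 4.04, 3.29 and 3.99 TPM in H. The H libraries lay close together, and the log2 fold change was 3.04 ± 0.28 (adjusted p = 0.0329).

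The other 3 genes higher in M have different roles. Nr2e1 (ENSMUSG00000019803.11, chromosome 10, 42561963 to 42583632), an orphan nuclear receptor of neural stem cells that no list held, was at 5.87 and 9.29 TPM in M and 0.489, 0.926 and 0.362 TPM in H (3.69 ± 0.38, adjusted p = 0.0329). Nts (ENSMUSG00000019890.4, chromosome 10, 102481756 to 102490486), which encodes the peptide neurotensin, was at 20.7 and 10.8 TPM in M and 0.782, 1.56 and 1.61 TPM in H (3.26 ± 0.37, adjusted p = 0.0346). Fzd1 (ENSMUSG00000044674.6, chromosome 5, 4753839 to 4758035), a receptor for Wnt proteins that is in no list, was at 59.8 and 55.9 TPM in M and 9.65, 14.4 and 13.1 TPM in H (1.89 ± 0.21, adjusted p = 0.0346). In all 3 genes the lowest M library stood several times above the highest H library.

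The genes higher in H were 2 Hox genes of paralog group 3, a Hox cofactor and a vesicle protein. Hoxb3 (ENSMUSG00000048763.11, chromosome 11, 96323326 to 96347930) was at 0.281 and 0.9996 TPM in M and 93.7, 90.6 and 62.01 TPM in H, and its log2 fold change was -8.48 ± 0.88 (adjusted p = 0.0329). Hoxd3 (ENSMUSG00000079277.9, chromosome 2, 74711927 to 74748442) was at 0.0479 and 0.343 TPM in M and 36.6, 40.8 and 29.5 TPM in H (-8.99 ± 0.96, adjusted p = 0.0329). Hoxd3 shares 17232 bases with Hoxd4 and 21191 with Gm28230 on the same strand in the annotation, and Hoxb3 and Ddc overlap antisense genes. Meis1 and Sv2c, described next, also overlap other annotated genes on both strands. These are overlaps of whole gene spans, introns included. How the estimated counts divide between such genes may be uncertain for these 5, and this was not tested. Meis1 (ENSMUSG00000020160.18, chromosome 11, 18879817 to 19018985), a homeodomain protein that binds DNA together with Hox proteins, was at 30.4 and 32.7 TPM in M and 57.2, 77.3 and 116 TPM in H (-1.83 ± 0.197, adjusted p = 0.0329). Unlike the Hox genes, Meis1 was well expressed in both regions. Sv2c (ENSMUSG00000051111.16, chromosome 13, 95954594 to 96132577), a glycoprotein of synaptic vesicles that no list held, was at 5.898 and 5.64 TPM in M and 9.92, 15.1 and 13.8 TPM in H (-1.499 ± 0.18, adjusted p = 0.0447).

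**Figure D2:**
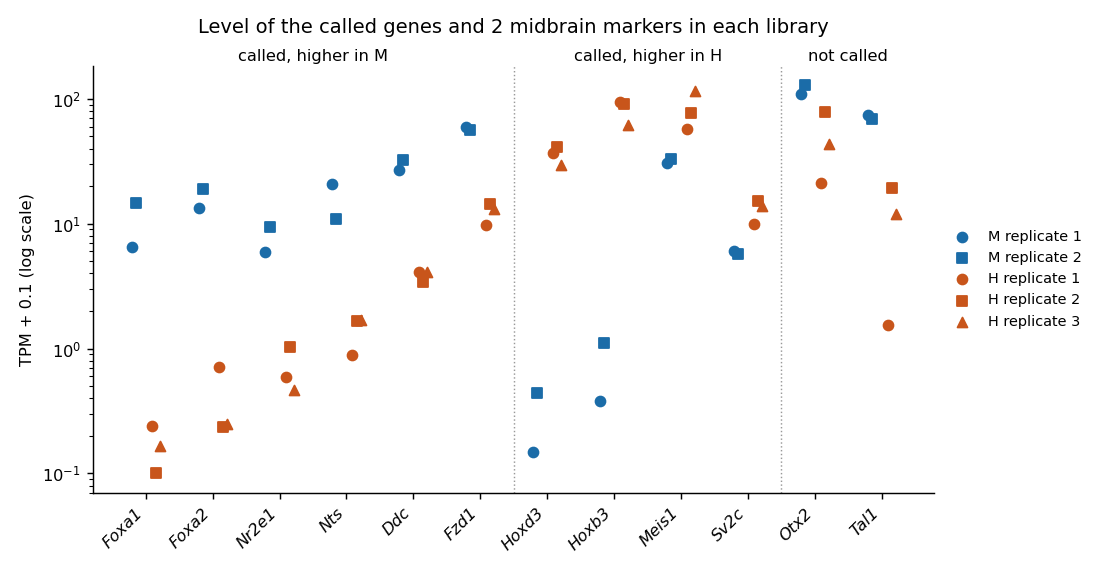
TPM plus 0.1 on a log axis for the 10 called genes and for the midbrain markers Otx2 and Tal1, 1 point per library (blue M, orange H, with the marker shape giving the replicate number). For all 10 called genes the M and H points do not overlap, and the H points of Otx2 and Tal1 are spread between 1.45 and 78.1 TPM.

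Otx2 and Tal1, the markers of the comparison, were not called. Otx2 (ENSMUSG00000021848.16, chromosome 14, 48657677 to 48673819), which sets the hind limit of the midbrain, was at 110.2 and 129 TPM in M and 20.98, 78.1 and 43.6 TPM in H. Tal1 (ENSMUSG00000028717.12, chromosome 4, 115056426 to 115071755), a selector of GABA neurons in the midbrain and the first rhombomere, was at 73.9 and 69.03 TPM in M and 1.45, 19.3 and 11.9 TPM in H. For both genes the M libraries were close to each other and above every H library, and H replicate 2 was the highest of the H libraries. The log2 fold change was 1.25 ± 0.42 for Otx2 and 2.41 ± 0.68 for Tal1 (adjusted p = 0.247 for each). With the spread taken from all 70 libraries Tal1 was called and Otx2 was not. Without H replicate 1 the log2 fold change was 1.02 ± 0.42 for Otx2 and 1.93 ± 0.32 for Tal1, again with neither called. In bulk tissue a smaller number of cells of a type and less RNA in each cell cannot be told apart.

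Leaving out H replicate 1, the library with the high mitochondrial share, gave 5 genes higher in M (0.0308% of 16252) and 6 higher in H (0.0369%). Of these, 3 in each direction were also called with all libraries, namely Foxa1, Foxa2 and Ddc in M and Hoxb3, Hoxd3 and Meis1 in H. Those described next were in no list. Asic4, of the family of acid-sensing channels, was at 156 and 118 TPM in M and 5.25, 23.95 and 17.4 TPM in H, with a log2 fold change of 2.56 ± 0.27 without H replicate 1 (adjusted p = 0.0424). On the H side, Unc5c, a receptor for the guidance cue netrin, was at 9.73 and 10.97 TPM in M and 34.3, 24.8 and 30.9 TPM in H (-1.58 ± 0.17, adjusted p = 0.0424). Ndnf, a secreted neurotrophic factor, was at 5.52 and 6.65 TPM in M and 14.01, 23.4 and 21.2 TPM in H (-1.66 ± 0.16, adjusted p = 0.0369). Col15a1, a collagen of basement membranes, was at 8.14 and 11.7 TPM in M and 80.6, 25.3 and 27.9 TPM in H, with H replicate 1 far above the others (-1.45 ± 0.15 without it, adjusted p = 0.0424). Meningeal and mesenchymal markers summed to 1016 and 250.0 TPM in M and 1297, 612 and 1213 TPM in H, and their part in Col15a1 was not tested. The 4 genes that were called only with H replicate 1 in the fit, Nr2e1, Nts, Fzd1 and Sv2c, had adjusted p-values of 0.0591 to 0.0681 without it and kept their direction. Without H replicate 2 the counts were 2 and 0, and none of the 10 genes was among them. Without H replicate 3 they were 4 and 17, with Ddc and Foxa2 the only M genes of the 10 and all 4 H genes among them. Without M replicate 1 they were 0 and 0, and without M replicate 2 they were 0 and 1, with none of the 10 called. In the last 2 fits the lone M library is assumed to vary as the other groups do.

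Of 20 midbrain regional factors, none was called in the first fit and 6 were called with the spread of all libraries (5 without H replicate 1), all higher in M. Their median log2 fold change was 1.66, against -0.03 over all genes, and 1.33 without H replicate 1. For 17 of the 20 every M library lay above every H library in TPM (15 on TMM-scaled counts), and for 1, Meis2, every M library lay below. Over all genes 30.7% lay above and 12% below in TPM, and 26.2% and 21.9% on TMM-scaled counts. Sox14, a factor of midbrain and diencephalic GABA neurons, was at 53.6 and 84.1 TPM in M and 1.78, 18.4 and 16.2 TPM in H (2.49 ± 0.67). Barhl2, a homeodomain factor of the dorsal midbrain and diencephalon, was at 34.4 and 50.9 TPM in M and 5.098, 12.6 and 3.800 TPM in H (2.203 ± 0.55). Tcf7l2, an effector of Wnt signalling that is strong in the thalamus and pretectum, was at 269.7 and 177 TPM in M and 61.6, 63.7 and 10.8 TPM in H (2.36 ± 0.76). These 3 were among the 6, with Otx1, Six3 and Bhlhe23, and Six3 was not called without H replicate 1.

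Several midbrain factors split the H libraries. Otx1, the relative of Otx2, was at 72.2 and 40.9 TPM in M and 1.72, 18.3 and 2.601 TPM in H (2.33 ± 0.87). Six3, a factor of the rostral forebrain and of midbrain GABA neurons, was at 85.9 and 43.5 TPM in M and 0.251, 22.6 and 0.276 TPM in H. Tfap2d, expressed in the dorsal midbrain, was at 36.5 and 25.7 TPM in M and 0, 14.9 and 0.383 TPM in H, and Tal2 at 41.3 and 46.1 TPM in M and 0.292, 34.7 and 0.287 TPM in H. In each of these 4 genes H replicate 2 was the highest of the H libraries, at 34.7 TPM for Tal2, and H replicates 1 and 3 were at most 2.60 TPM. Bhlhe23, a helix-loop-helix factor, lacked this pattern, at 6.01 and 11.1 TPM in M and 0, 0.554 and 0.388 TPM in H (4.42 ± 0.89). Meis2, which is widely expressed in the embryonic brain, was at 269.5 and 215 TPM in M and 388, 642 and 539 TPM in H (-1.03 ± 0.201, adjusted p = 0.244).

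**Figure D3:**
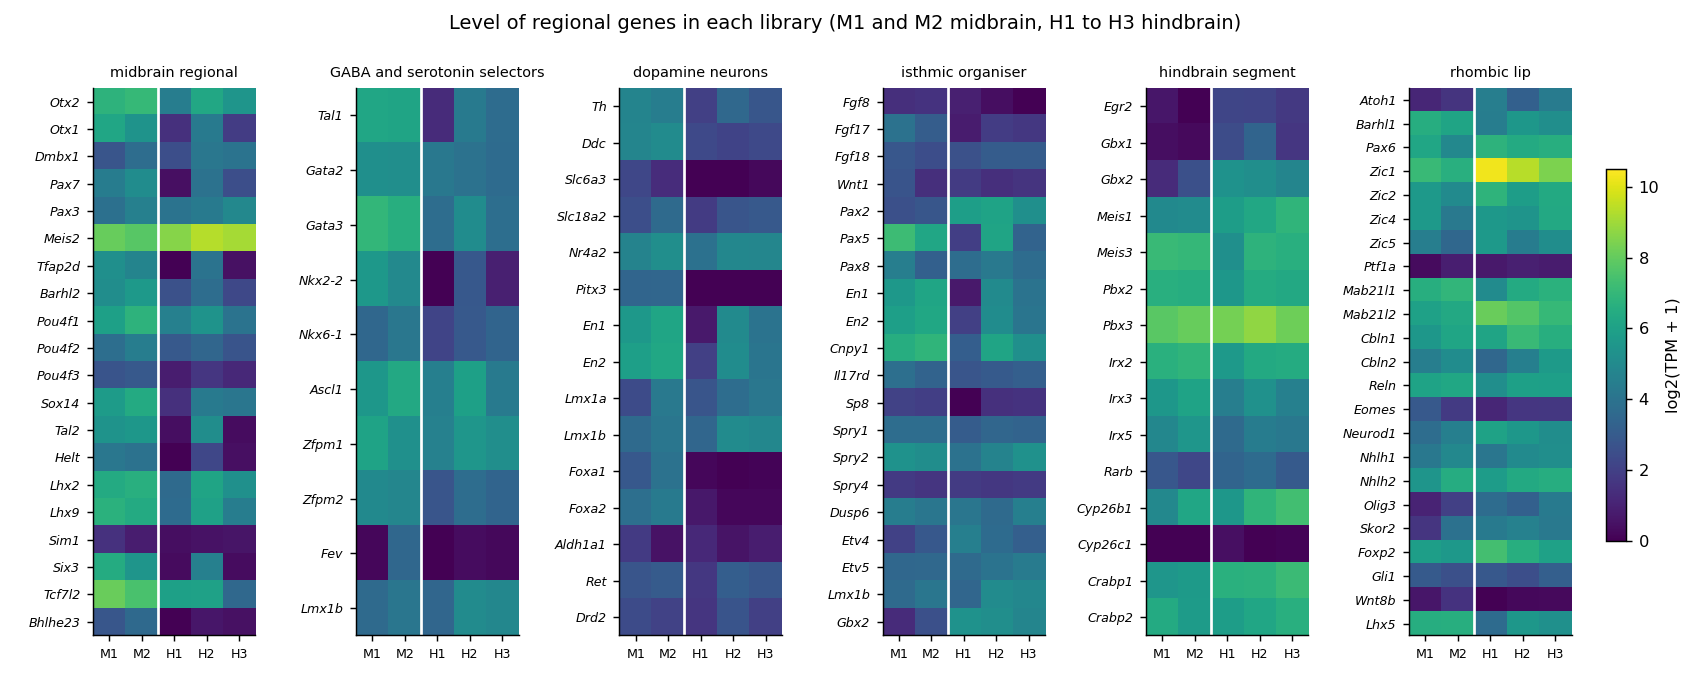
Log2(TPM + 1) of members of 6 gene lists (rows) in the 5 libraries (columns, M1 and M2 midbrain and H1 to H3 hindbrain, split by a white line), on a colour scale that starts at 0. Foxa1, Foxa2 and Pitx3 are dark in all H columns, Gbx2, Atoh1 and Egr2 are brighter in H, and many midbrain factors are brighter in H2 than in H1 and H3.

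The selector factors of GABA and serotonin neurons in the midbrain and rostral hindbrain gave a similar picture. None of the 10 was called in the first fit, 6 were called with the spread of all libraries (5 without H replicate 1), all higher in M, and their median log2 fold change was 1.25. For 6 of the 10 every M library lay above every H library, against 30.7% of all genes. Gata3, which acts with Tal1 and Gata2 in GABA and serotonin neurons, was at 123 and 94.9 TPM in M and 12.4, 33.6 and 13.05 TPM in H (2.22 ± 0.37, adjusted p = 0.178). Gata2 was at 36.2 and 35.1 TPM in M and 17.3, 14.49 and 11.8 TPM in H (1.15 ± 0.39). Zfpm2, a cofactor of GATA proteins also called FOG2, was at 30.97 and 27.4 TPM in M and 5.72, 12.5 and 9.48 TPM in H (1.34 ± 0.24). Nkx2-2, a ventral patterning factor, was at 47.3 and 29.9 TPM in M and 0, 6.41 and 0.888 TPM in H (3.82 ± 0.99), and its level in THy-PHy was 56.4 to 71.6 TPM.

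Genes of midbrain dopamine neurons held 3 of the 6 genes called higher in M, Foxa1, Foxa2 and Ddc. Of the 15 members 8 were called higher in M with the spread of all libraries (6 without H replicate 1, Th and En1 being lost) and 0 in the other direction. The same 8 had both M libraries above all H libraries, against 30.7% of all genes. The median log2 fold change of the list was 1.61, and 1.12 without H replicate 1. Pitx3, a homeodomain factor that is restricted to dopamine neurons within the brain, was at 9.63 and 10.1 TPM in M and had 0 estimated counts in the H libraries. Set against a floor of 3 counts over the H group, it was at least 61.2-fold higher in M. Slc6a3, the dopamine transporter, was at 3.67 and 1.55 TPM in M and 0, 0 and 0.154 TPM in H (5.29 ± 0.98, adjusted p = 0.236). Th, the rate-limiting enzyme of dopamine and noradrenaline synthesis, was at 25.8 and 21.04 TPM in M and 3.01, 10.7 and 5.98 TPM in H (1.61 ± 0.52), so H was not free of it.

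Not every gene of the dopamine list differed in this way. Nr4a2, a nuclear receptor needed for dopamine neurons and present in other neurons too, was at 24.7 and 35.8 TPM in M and 14.1, 27.7 and 27.4 TPM in H, and the groups overlapped. Lmx1b was at 11.2 and 16.2 TPM in M and 9.94, 32.4 and 28.2 TPM in H and Lmx1a, its relative in the roof and floor plates, at 4.21 and 17.8 TPM in M and 5.85, 12.6 and 16.8 TPM in H. Ret, the receptor for GDNF, was at 5.85 and 7.12 TPM in M and 2.27, 7.89 and 5.92 TPM in H, and Drd2, the dopamine receptor, at 4.27 and 3.17 TPM in M and 2.06, 5.68 and 2.99 TPM in H. For each of these 5 genes the M and H libraries overlapped. Aldh1a1, which marks a subset of ventral dopamine neurons, was at most 2.43 TPM in any of the 5 libraries.

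The isthmic organiser genes went both ways. None of the 20 was called in the first fit, and with the spread of all libraries 5 were higher in M and 2 in H (2 and 2 without H replicate 1), with a median log2 fold change of 0.23. Pax2, which at this stage also marks GABA and glycine interneurons of the hindbrain and cerebellum, was at 4.96 and 6.03 TPM in M and 58.3, 67.1 and 36.4 TPM in H (-3.64 ± 0.91). Gbx2, the hindbrain counterpart of Otx2, was at 1.46 and 4.98 TPM in M and 39.7, 35.00 and 26.8 TPM in H (-3.401 ± 0.98). These 2 were the genes higher in H, with all H libraries well above both M libraries. En1 and En2, engrailed factors of the midbrain and the first rhombomere, were at 46.9 and 70.5 TPM in M and 0.627, 31.4 and 14.9 TPM in H and at 59.4 and 75.3 TPM in M and 2.98, 33.3 and 15.8 TPM in H (1.66 ± 0.93 and 1.69 ± 0.72). Pax5 was at 144 and 73.1 TPM in M and 2.902, 68.4 and 9.03 TPM in H, with H replicate 2 next to M replicate 2. The signal Fgf8 was low, at 1.67 and 1.898 TPM in M and 0.888, 0.317 and 0 TPM in H, and its relative Fgf17 was at 14.6 and 7.53 TPM in M and 0.739, 2.64 and 2.28 TPM in H (2.26 ± 0.49).

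Hox genes divided both the regions and the H libraries. Of 39 Hox genes 19 had enough counts to be tested, 2 were called higher in H in the first fit and 20 of 30 tested with the spread of all libraries (18 without H replicate 1), and 0 were higher in M. Of the 18 with a mean of at least 1 TPM in M or H, 13 had every H library above both M libraries. Over all genes this share was 12%, but no Hox gene reached 1 TPM in an M library. All 18 thus passed that level through H alone, so the direction of this count was fixed by how they were chosen. The filter on counts, which genes nearly absent in M pass through other groups, weighs on the median in the same way. The median log2 fold change of the tested Hox genes was -8.48, and -8.098 with the genes that had no count in M set to their lower bound. All 39 together summed to 3.42 and 4.45 TPM in M and 720.1, 768 and 178 TPM in H. The M total of under 5 TPM was the sum of many traces, and no Hox gene exceeded 1.00 TPM in an M library.

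Paralog groups 2 and 3 were present in all 3 H libraries at 259, 242 and 166 TPM in sum. Hoxa2, the most rostrally expressed Hox gene, was at 0 and 0.345 TPM in M and 46.3, 29.4 and 33.3 TPM in H (-8.098 ± 1.45, adjusted p = 0.222). Hoxb2 was at 0.505 and 0.569 TPM in M and 21.1, 23.6 and 26.4 TPM in H (-5.29 ± 0.68, adjusted p = 0.0661) and Hoxa3 at 0.0839 and 0.3201 TPM in M and 60.8, 58.1 and 14.3 TPM in H (-8.21 ± 1.07, adjusted p = 0.0687). Hoxa3 was thus already lower in H replicate 3 than in the others, while Hoxa2 and Hoxb2 were not. Paralog group 1 was low in all libraries at this stage.

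From paralog group 4 on, H replicate 3 left the other H libraries. Hoxa4 was at 138, 77.6 and 1.79 TPM in H and Hoxb4 at 25.7, 27.7 and 1.83 TPM. Hoxa5 was at 83.1, 84.95 and 0.298 TPM and Hoxb5 at 120.1, 147 and 0.471 TPM. H replicates 1 and 2 both expressed these genes strongly, and H replicate 3 was below 2 TPM for each. In paralog groups 6 to 8 H replicate 2 was the highest, with Hoxb6 at 4.33, 22.4 and 0 TPM and Hoxb8 at 2.67, 43.4 and 0.105 TPM. Summed over a paralog group, group 5 had 225, 260 and 0.953 TPM in H, and group 8 had 3.55, 44.2 and 0.681 TPM. Groups 9 to 13 summed to at most 1.98 TPM in any library. The H pools thus differed by paralog group, and no Hox gene above paralog group 3 was called in the first fit.

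**Figure D4:**
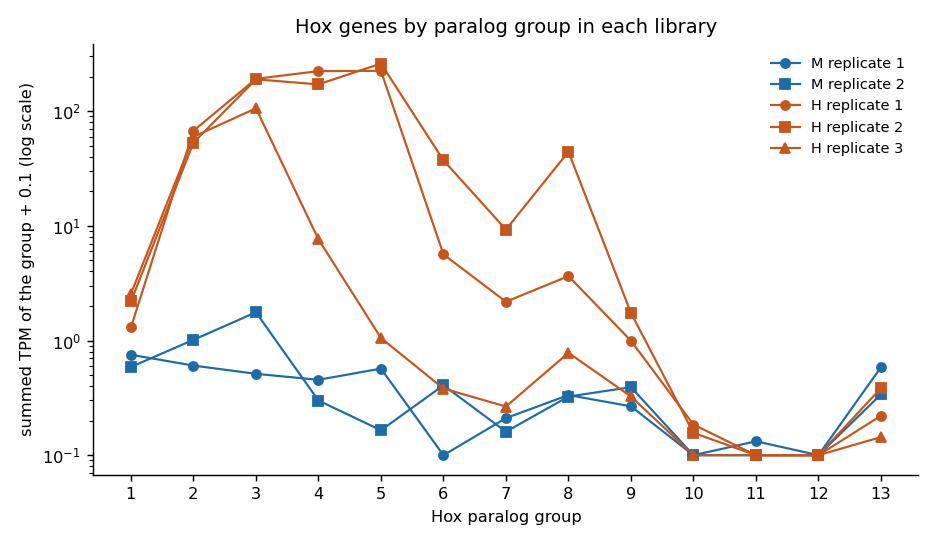
Summed TPM plus 0.1 on a log axis of the Hox genes of each paralog group (1 to 13, horizontal axis), 1 line per library (blue M, orange H, with the marker shape giving the replicate number). Both M lines stay under 2 TPM, the 3 H lines run together at groups 2 and 3, H replicate 3 drops from group 4, and H replicate 1 drops below H replicate 2 from group 6.

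Segment genes and Hox cofactors included 1 called gene, Meis1. With the spread of all libraries 7 of 16 tested were higher in H and 0 in M (6 and 0 without H replicate 1), and the median log2 fold change was -0.699. Egr2, the factor of odd-numbered rhombomeres also called Krox20, was at 0.572 and 0 TPM in M and 3.52, 3.46 and 2.36 TPM in H (-4.49 ± 1.24). Gbx1 was at 0.307 and 0.201 TPM in M and 4.44, 9.42 and 2.17 TPM in H (-4.77 ± 0.796, adjusted p = 0.179). The enzyme Cyp26b1, which breaks down retinoic acid, was at 28.97 and 73.2 TPM in M and 46.6, 117 and 159.9 TPM in H (-1.32 ± 0.48), and the retinoic acid binding protein Crabp1 was at 44.2 and 52.04 TPM in M and 100.2, 106 and 141 TPM in H (-1.59 ± 0.38). The cofactors Meis3 and Pbx2 and the Iroquois factors Irx2, Irx3 and Irx5 had every M library above every H library in TPM, with log2 fold changes under 1. In TPM 30.7% of all genes had M above H in this way.

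Of 24 genes of the rhombic lip and cerebellum, which arise from the dorsal edge of the first rhombomere and further back, 0 were called in the first fit. With the spread of all libraries 10 were higher in H and 3 in M (8 and 2 without H replicate 1), with a median log2 fold change of -0.88. Atoh1, the selector of rhombic lip neurons, was at 1.198 and 1.99 TPM in M and 21.6, 8.26 and 19.7 TPM in H (-3.75 ± 0.899), and Olig3, also of the dorsal hindbrain, at 1.08 and 3.01 TPM in M and 11.9, 8.42 and 18.4 TPM in H (-2.96 ± 0.82). Neurod1, which follows Atoh1 in granule cells, was at 12.7 and 22.3 TPM in M and 65.6, 45.4 and 34.04 TPM in H (-1.91 ± 0.504). Zic1 was at 138 and 98.3 TPM in M and 1248, 663 and 339 TPM in H (-2.005 ± 0.48) and Zic2 at 50.7 and 31.2 TPM in M and 114, 57.04 and 81.7 TPM in H (-1.65 ± 0.46), and both were among the 10. Zic genes are also expressed in meninges, whose 12 markers summed to 1016 and 250.0 TPM in M and 1297, 612 and 1213 TPM in H, and the part of meninges in the difference was not tested. Mab21l2 was at 62.99 and 79.6 TPM in M and 272, 207 and 128 TPM in H (-1.95 ± 0.496). The members higher in M were Barhl1 at 91.9 and 70.1 TPM in M and 20.7, 46.02 and 35.9 TPM in H (1.34 ± 0.26), Lhx5 at 93.05 and 95.9 TPM in M and 11.6, 46.7 and 37.9 TPM in H (1.297 ± 0.405) and Wnt8b, which stayed under 2 TPM.

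Among 22 factors of hindbrain interneurons, with 0 called in the first fit, 6 were higher in H and 3 in M with the spread of all libraries (5 and 0 without H replicate 1). Lbx1, the selector of dorsal inhibitory interneurons of the hindbrain and spinal cord, was at 0 and 0.431 TPM in M and 6.53, 10.9 and 19.4 TPM in H (-6.07 ± 2.15), with H replicate 3 the highest library. Uncx, a paired-type homeodomain factor, went the other way at 48.7 and 59.3 TPM in M and 10.7, 24.9 and 17.3 TPM in H (1.31 ± 0.33). Dbx1, which marks progenitors next to the basal and alar boundary, was at 30.1 and 35.1 TPM in M and 0.0729, 38.3 and 4.44 TPM in H and so spread over the H libraries like the midbrain factors.

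Of 14 genes of cranial motor and cholinergic neurons, 3 were higher in H with the spread of all libraries (3 without H replicate 1), Phox2a and Tbx20 among them, and 0 in the first fit. Tbx20, a factor of branchial motor neurons, was at 0.148 and 0.0632 TPM in M and 1.51, 1.08 and 3.32 TPM in H. The acetylcholine enzyme Chat was at 0.231 and 0.168 TPM in M and 0.05295, 0.388 and 0.4998 TPM in H, and the transporter Slc18a3 was at 0.951 and 0.7898 TPM in M and 0.499, 1.78 and 2.44 TPM in H. Mnx1, a factor of spinal and abducens motor neurons, had 0 estimated counts in all 5. For noradrenaline neurons, with 11 genes, 9 were tested, 0 were called in the first fit, and 3 were higher in H and 2 in M with the spread of all libraries (3 and 0 without H replicate 1). Tfap2a, a factor of neural crest and of noradrenaline neurons, was at 14.7 and 29.2 TPM in M and 74.6, 95.4 and 61.5 TPM in H (-2.06 ± 0.46). Dbh, which turns dopamine into noradrenaline, was at 0.384 and 11.1 TPM in M and 0.704, 8.36 and 4.77 TPM in H, high in M replicate 2 and low in M replicate 1.

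Of the serotonin neuron genes, 3 defining members were highest in M replicate 2. Tph2, the enzyme of serotonin synthesis in neurons, was at 1.55 and 7.12 TPM in M and 0, 0.0379 and 1.198 TPM in H, the serotonin transporter Slc6a4 at 0.531 and 12.7 TPM in M and 0.164, 0.218 and 2.302 TPM in H and the selector Fev at 0.135 and 10.4 TPM in M and 0, 0.283 and 0.154 TPM in H. In these 3 genes M replicate 2 was several times above M replicate 1, and the groups overlapped for Slc6a4 and Fev. Of the 11 genes 1 was called higher in M in the first fit, Ddc, which dopamine neurons share. With the spread of all libraries 5 were higher in M and 1, Maob, in H (3 and 0 without H replicate 1), and the 3 that remained were Ddc, Gata2 and Gata3.

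Of 17 genes of GABA, glycine and glutamate transmission none was called in the first fit, and with the spread of all libraries 3 were higher in M and 1 in H (1 and 1 without H replicate 1). Their median log2 fold change was -0.00125. Of the 15 with a mean of at least 1 TPM, 6 had both M libraries above all H libraries and 2 below, and on TMM-scaled counts 4 lay above and 4 below. Over all genes the shares above and below were 30.7% and 12% in TPM, and 26.2% and 21.9% on TMM-scaled counts. Gad1, which makes GABA, was at 122 and 102 TPM in M and 16.8, 48.3 and 72.7 TPM in H (1.12 ± 0.28) and Slc32a1, which loads GABA and glycine into vesicles, at 59.2 and 57.4 TPM in M and 9.205, 23.5 and 31.5 TPM in H (1.202 ± 0.35). Slc6a5, the neuronal glycine transporter, was at 0.633 and 0.918 TPM in M and 7.17, 5.94 and 7.55 TPM in H (-3.48 ± 0.86), and Glra1, the adult form of the glycine receptor, at 1.14 and 0.599 TPM in M and 2.15, 3.44 and 3.100 TPM in H (-2.04 ± 0.51). For both glycine genes all H libraries were above both M libraries. The glutamate transporter Slc17a6 was at 56.8 and 55.1 TPM in M and 22.7, 47.5 and 50.4 TPM in H, where H replicates 2 and 3 were close below M and H replicate 1 was lowest.

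Of 28 neuropeptide genes 1 was called, Nts. With the spread of all libraries 3 were higher in M and 5 in H (2 and 3 without H replicate 1). Pnoc, the precursor of nociceptin, was at 50.9 and 42.7 TPM in M and 0.997, 11.8 and 12.6 TPM in H (2.17 ± 0.63). Pthlh, the parathyroid hormone-related peptide, was at 0.213 and 2.401 TPM in M and 14.2, 6.06 and 5.501 TPM in H (-2.899 ± 0.97). Npy was at 67.4 and 17.95 TPM in M and 125, 201 and 28.5 TPM in H and Penk, the enkephalin precursor, at 31.3 and 65.3 TPM in M and 140.1, 64.5 and 68.4 TPM in H, and for both the groups overlapped although both were called higher in H with the spread of all libraries (without H replicate 1 Npy only). Among 22 ephrins and Eph receptors, the contact signals of tissue boundaries, 0 were called in the first fit, and 5 were higher in M and 0 in H with the spread of all libraries (2 and 0 without H replicate 1). Epha10 was at 26.4 and 21.3 TPM in M and 1.25, 7.03 and 8.17 TPM in H (2.07 ± 0.497), Ephb1 at 151 and 129 TPM in M and 22.6, 65.7 and 81.00 TPM in H (1.14 ± 0.36) and the ligand Efnb2 at 35.7 and 27.2 TPM in M and 51.6, 57.1 and 74.6 TPM in H (-1.02 ± 0.17, adjusted p = 0.178). The ephrin genes of the M side included Efnb3 at 136 and 143 TPM in M and 24.4, 68.7 and 80.8 TPM in H.

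Of 18 neural progenitor genes and 22 cell cycle genes, 0 were called in the first fit. With the spread of all libraries 3 progenitor genes were higher in M and 1 in H (3 and 0 without H replicate 1), and 2 cell cycle genes were higher in H (0 without H replicate 1). Sox3, a progenitor factor, was at 24.2 and 35.99 TPM in M and 0.9601, 5.25 and 6.81 TPM in H (2.56 ± 0.72), and Hes5, a target of Notch, at 65.2 and 115 TPM in M and 3.26, 30.5 and 41.9 TPM in H (2.202 ± 0.82). The proliferation marker Mki67 was at 27.1 and 28.9 TPM in M and 80.9, 48.5 and 40.3 TPM in H. The median log2 fold change was 0.32 for progenitor genes and -0.696 for cell cycle genes, and -0.33 for the latter without H replicate 1. The 21 genes of postmitotic neurons had a median of 0.01, with 0 called in either fit, and they summed to 8381 and 8713 TPM in M and 3625, 7884 and 7666 TPM in H. H replicate 1 was the lowest of the 5 for this sum.

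Markers of other cell types moved with the groups as follows. The 14 cartilage, muscle and epithelial genes had a median log2 fold change of -3.47, and -1.02 without H replicate 1, with 9 higher in H with the spread of all libraries (4 without H replicate 1) and 0 in the first fit. Col2a1, the main cartilage collagen, was at 72.7 and 85.2 TPM in M and 942, 73.3 and 185 TPM in H, and Myh3, the embryonic myosin of muscle, at 0.291 and 0.487 TPM in M and 39.3, 0.619 and 0.667 TPM in H. Of the 12 genes of meninges and mesenchyme 8 were higher in H with the spread of all libraries (3 without H replicate 1), with a median of -1.75 and of -0.96 without H replicate 1. Choroid plexus genes differed more within the groups than between them, summing to 157 and 1903 TPM in M and 639, 1219.7 and 2119 TPM in H, with Ttr, its main product, at 18.8 and 1614 TPM in M and 566, 1025 and 1880.0 TPM in H. Otx2 is a choroid plexus gene too, and was at 110.2 TPM in M replicate 1, where Ttr was lowest. Ttr was also high in H, and the part of choroid plexus in the Otx2 levels of M and H was not tested. Blood genes summed to 12618 and 7612 TPM in M and 5314, 7812 and 10635 TPM in H, microglia genes to 135 and 68.9 TPM in M and 70.1, 95.9 and 179.8 TPM in H and vessel wall genes to 287 and 188 TPM in M and 256, 278 and 273 TPM in H. Markers of cranial ganglia and Schwann cells summed to 100.2 and 137 TPM in M and 86.5, 83.2 and 64.2 TPM in H, and in M most of this was Pou4f1, a gene of the dorsal midbrain as well, at 62.4 and 108 TPM. Sox10, which defines Schwann and early oligodendrocyte cells, was at 1.09 and 1.18 TPM in M and 17.8, 3.44 and 4.997 TPM in H. Of the 10 oligodendrocyte genes 2 were higher in H and 1, Nkx2-2, in M with the spread of all libraries, with and without H replicate 1.

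**Figure D5:**
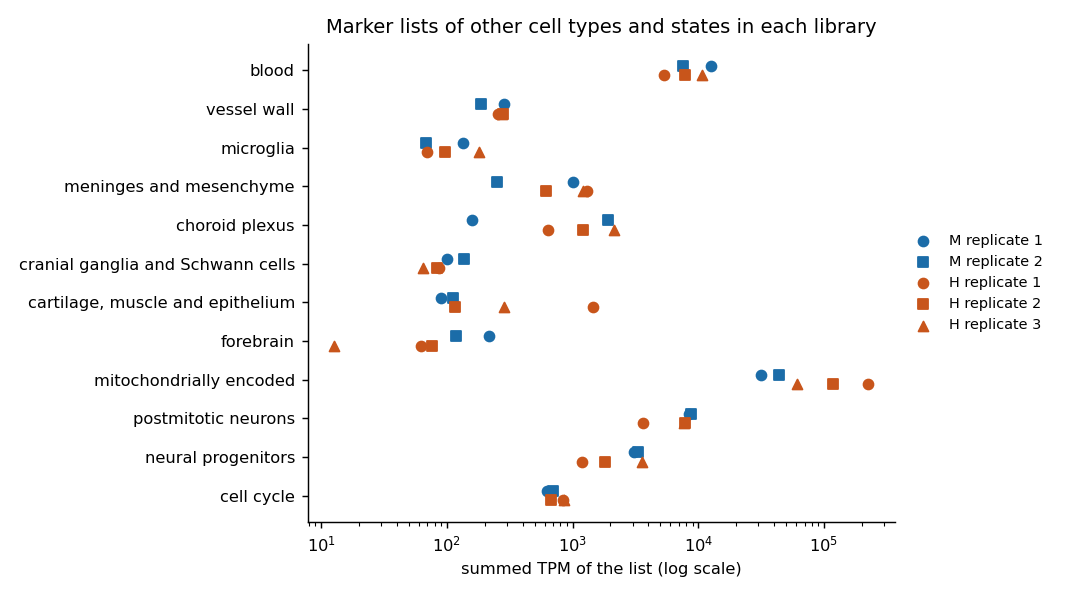
Summed TPM of the members of 12 marker lists (rows) on a log axis, 1 point per library (blue M, orange H, with the marker shape giving the replicate number). The mitochondrially encoded sum of each H library lies above both M libraries, H replicate 1 stands apart for cartilage, muscle and epithelium at 1459.6 TPM, and M replicate 1 for choroid plexus at 157 TPM.

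Forebrain factors were mostly low but not absent in M and H. The 15 on the list summed to 216 and 117 TPM in M and 62.8, 76.3 and 12.7 TPM in H. Emx2 was at 98.2 and 51.3 TPM in M and 17.2, 33.2 and 1.15 TPM in H and Emx1 at 7.998 and 2.32 TPM in M and 0, 0.0859 and 0.219 TPM in H. With the spread of all libraries 5 of the 15 were higher in M and 2, Dlx5 and Dlx6, in H (4 and 0 without H replicate 1), and 0 in the first fit. The median log2 fold change of the list was -0.07. Of the 13 mitochondrially encoded genes 12 had every H library above both M libraries, against 12% of all genes. With the spread of all libraries 12 of the 13 were higher in H (4 without H replicate 1). Their median log2 fold change was -2.41, and -1.495 without H replicate 1. Leaving the mitochondrially encoded genes out of the fit gave the same 6 and 4 calls. Of 14 stress and early response genes 1 was higher in M and 1 in H with the spread of all libraries (0 and 0 without H replicate 1). The Y-linked genes Ddx3y, Uty and Kdm5d were present in all 5 pools and 0 of them were called.

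Of the 190 genes that the study lists for obesity, 186 were tested and 0 were called in the first fit. With the spread of all libraries 6 were higher in M and 11 in H of 189 tested (3 and 4 without H replicate 1), shares that can be read against 2.51% and 6.02% of all genes (0.961% and 1.84%). The median log2 fold change was 0.01. The 6 were Tal1, Tcf7l2, Lmo1, Gipr, Rcc1l and Tmem160, of which Tal1, Tcf7l2 and Lmo1 stayed called without H replicate 1. Lmo1, a cofactor of Tal1 and GATA proteins, was at 96.9 and 135 TPM in M and 3.56, 20.97 and 24.96 TPM in H. Among the 11 were Mc4r, the melanocortin receptor of appetite control, at 0.471 and 0.556 TPM in M and 1.78, 1.65 and 1.802 TPM in H, and Lepr, the leptin receptor, at 3.56 and 3.800 TPM in M and 14.04, 4.27 and 9.68 TPM in H. Neither Mc4r nor Lepr was called without H replicate 1. Sema3a, a secreted guidance cue, was at 6.903 and 6.36 TPM in M and 10.4, 15.7 and 22.5 TPM in H (adjusted p = 0.07397), and Olig3 and Skor1 are hindbrain factors.

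Levels outside the embryonic regions give the called genes a context, as a description without a test. Foxa2 was at 10.8 to 16.8 TPM in the adult ventral tegmental area (VTA) at P56, where dopamine neurons lie, and Foxa1 at 14.6 to 18.5 TPM. In the adult parabrachial nucleus (PB), nucleus of the solitary tract (NTS) and dorsal vagal complex (DVC), which are hindbrain nuclei, neither gene exceeded 0.148 TPM. Foxa1 was also at 4.73 to 6.37 TPM in THy-PHy, and Foxa2 there at 0.228 to 0.533 TPM. By mean TPM over the 24 regions and lines, M ranked first for Foxa2, Fzd1, Otx2 and Tal1 and second for Foxa1 and Pitx3, after VTA. Ddc was much higher in VTA, at 198 to 571 TPM, and H had the lowest mean of all 24. Nr2e1 was highest in F, at 96.5 TPM, and Nts in the lateral hypothalamus.

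The genes higher in H differed in their adult levels. Hoxb3 was at 17.9 to 25.9 TPM in NTS and 33.5 to 40.1 TPM in DVC, and at most 0.645 TPM in PB, which lies in the rostral hindbrain. Hoxd3 was at 12.5 to 22.05 TPM in NTS and 24.7 to 28.9 TPM in DVC. Hoxb5, which was low in H replicate 3, was at 3.14 to 7.08 TPM in NTS and 60.1 to 91.04 TPM in DVC. For Hoxb3, Hoxd3 and Meis1, H had the highest mean of the 24. Sv2c was low in all embryonic regions and reached 77.9 to 118 TPM in DVC.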

How the data were processed

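RNA of 5 embryonic libraries (M 2, H 3) was compared, with 3 THy-PHy libraries in the fit to share the estimate of spread. Per the labels, the authors made strand-specific mRNA libraries and quantified transcripts with kallisto on GRCm38, and their processing notes also name CASAVA 1.8.2. They deposited estimated counts per transcript and TPM per gene. The study lists collection batches by region without replicate numbers, so no value within a batch was given, and a fit with the batches in their listed order, an assumption, was added after seeing the data. Here the estimated counts were summed per gene through GENCODE M21 (98.8% of 109282 transcripts matched, and 0.537% to 0.660% of the counts of M and H libraries stayed out) and rounded. The TPM of 370 genes differed from the sum of their matched transcripts by more than 1% and 0.05 TPM.

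Genes were tested with edgeR 4.0.16 (R 4.3.3) by its quasi-likelihood test with TMM scaling, filterByExpr and Benjamini-Hochberg adjustment. The SE of an edgeR fold change was its size divided by the square root of the F statistic of that test. It is thus no separate estimate of spread. A call needed an adjusted p below 0.05 and a change of more than 1 on the log2 scale. DESeq2 1.42.0 and limma 3.58.1 on log2(TPM + 0.5) were alternatives. A simulated data set was fitted too, with 16146 genes tested. Of 200 genes changed 4-fold in it, 149 were called, and 7 false calls fell on genes left as they were. Whether these rates hold for M and H, whose H pools differed in regional markers, was not tested. Estimated counts and TPM of M and H replicates measure the spread between pools, which may be technical. Named genes were the 10 with the largest change in each direction among called protein-coding genes whose libraries did not overlap and whose mean was at least 5 TPM in the higher group, Otx2 and Tal1, and members of 30 lists, called members first. Genes named for a pattern of the H libraries (such as Tal2, Six3 and Dbx1) were picked after their values were seen. The members and lists were chosen with earlier results of these data known. Some genes that the rule would name are not reported here.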

Additional observations from a re-analysis of the deposited data

How the results depend on the processing

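The counts of called genes depended on the estimate of spread. None of the 68 genes whose fold change was followed through the alternatives reversed its direction, though several lost or gained a call. These genes were chosen with values of the same libraries known, so a kept direction is weak evidence. The calls were 6 higher in M and 4 in H, and 5 and 6 without H replicate 1. DESeq2 gave 95 and 351, and 77 and 164 without H replicate 1. Without a filter on low counts there were 10 and 7, and 18 and 15 without H replicate 1. With only the M and H libraries edgeR called 0 and 0 in both cases, at 2361 and 2763 genes with an unadjusted p under 0.05. All 70 libraries gave 502 and 1203, and 191 and 365 without H replicate 1. limma on log2(TPM + 0.5) gave 5 and 5, sharing 4 and 2 calls with the first fit, and 7 and 3 without H replicate 1. limma on log2(TPM + 0.1) gave 2 and 1, and 5 and 2 without H replicate 1. limma without a filter gave 38 and 8, and 31 and 11 without H replicate 1. Leaving out each library in turn gave 0 to 5 genes higher in M and 0 to 17 higher in H. RLE size factors and leaving out mitochondrially encoded genes gave the same counts as the first fit. The cause of these differences was not tested.

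The correlation of deviations between M and H libraries of the same replicate number was 0.0266 for number 1 and 0.0397 for number 2. Because there are only 2 M libraries, their deviations mirror each other, and this check cannot exclude pairing. With a replicate block 1 gene was higher in M and 6 in H, of which Nr2e1 and Hoxb3 were among the 10 genes described and the other 8 of these lost their call, and 0 and 0 without H replicate 1, where 930 genes had an unadjusted p under 0.05. With the collection batches as a block, given to the replicates in their listed order (M replicate 2 beside H replicate 3, an assumption), 0 genes were higher in M and 2 in H, and 0 and 2 without H replicate 1. None of the 10 genes was among them, at 1743 and 955 genes with an unadjusted p under 0.05 by edgeR. Depth was lowest in H replicate 1, and with 2 M libraries each M library decides the calls.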
